A study of Mus musculus with 4 samples.

Results

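Rab and Arf GTPases, SNARE proteins and vacuolar sorting proteins move membrane between the compartments of a cell. Their transcripts were followed here in mouse peritoneal macrophages cultured with transforming growth factor beta 2 (TGFb2) or without it. Members were all probe sets with exactly 1 gene symbol that reads Rab, Arf, Vamp, Stx, Snap or Vps followed by a digit, or that is Napa, Napb, Napg or Nsf. This gave 115 of the 12488 probe sets on the array and 89 genes, and 1 further probe set that carried such a symbol beside others was left out. By the start of the symbol the members comprised 51 Rab, 23 Vps, 12 Stx, 12 Vamp, 9 Arf, 4 Snap, 3 Nap and 1 Nsf probe sets, and Napg had none. The rule takes names and not functions. It therefore also takes the antisense RNA genes Rab10os and Rab26os, the Rab5-interacting factor Rab5if, the Rab effectors and exchange factors Rab11fip5, Rab3il1 and Rab3ip, the clathrin assembly protein Snap91 and the chromatin protein Vps72.

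A vesicle buds from one membrane and fuses with the next. Arf GTPases in their GTP form recruit coats and adaptors to the donor membrane, and Rab GTPases mark each compartment and recruit tethers and motors. An R-SNARE on the vesicle (a Vamp) then pairs with Q-SNAREs on the target (Stx and Snap proteins) into a bundle that drives fusion, and the ATPase Nsf with its adaptors, the Nap (SNAP) proteins, takes the spent bundle apart for reuse. Vps proteins form sorting machines on endosomes, among them retromer, the ESCRT complexes and several tethers. In macrophages this traffic serves phagocytosis, macropinocytosis, phagosome maturation and the secretion of cytokines.

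The cells were peritoneal exudate cells of female BALB/c mice 6 to 8 weeks old, drawn into the cavity by 2 ml of 3% thioglycolate given into the peritoneum 4 days before harvest. They were cultured overnight without serum, with either PBS or porcine TGFb2 (5 ng, with no volume given), and RNA came from the adherent cells, stated to be over 95% positive for the macrophage antigen F4/80. Each group held 2 arrays, PBS replicates 1 and 2 and TGFb2 replicates 1 and 2. Nothing in the labels ties the replicates to separate mice or cultures, so each p-value speaks only for the scatter of these 4 arrays, part or all of which may be technical.

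Values are MAS5 signals, linear probe set intensities whose 2% trimmed mean was 150.1 on each array. The median member signal was 149.7 and 149.0 with PBS and 153.2 and 139.7 with TGFb2. Log2 signals of the tested members correlated at 0.986 within the PBS group, 0.980 within the TGFb2 group and 0.964 to 0.977 across groups, a description over probe sets that share each array. Signals of different probe sets do not compare the abundance of their transcripts, since probes differ in their response. All 12 macrophage marker genes on the array had a tested probe set, and 0 of their 14 tested probe sets passed the test below. Their median log2 difference was 0.29. TGFb2 signals were higher without overlap for 8 of the 14 and lower for 2, beside 21.1% and 21.8% of all tested probe sets. Fcgr1 gave differences of 1.26 and 1.13 (limma adjusted p = 0.055 and 0.067), Mertk 0.78, Itgam 0.73 and Mrc1 -0.47. Tyrobp, Cd68, Csf1r and the probe sets of Msr1 differed by 0.18 to 0.55. Fcer1g differed by 0.00, Adgre1 by -0.05, Lyz2 by -0.10 and Cd14 by -0.19. Each summed signal here covers all probe sets of a list, tested or not. The macrophage sum was 21516 and 22214 with PBS and 25011 and 23876 with TGFb2. Of 15 tested probe sets of fibroblast and mesothelial markers 5 passed higher with TGFb2, namely those of Fbln2 and Col5a2, 2 of Col1a1 and 1 of Col1a2. Dcn passed lower, at 1131 and 747 with PBS against 319 and 257 with TGFb2. The 9 that did not pass ran from -0.78 for a probe set of Pdgfra to 0.86 for a probe set of Col3a1. Among them Upk3b and Lum differed by -0.55 and -0.44, and Krt8 and Wt1 by 0.28 and 0.20. Summed signals were 2838 and 2035 with PBS against 3288 and 2840 with TGFb2. Of 6 tested neutrophil probe sets 2 passed higher (S100a8 and 1 of 3 for Csf3r; the other two differed by -0.15 and 0.01), with sums of 695 and 703 against 1265 and 1343. Of the neutrophil granule genes, Camp gave 74.8 and 63.4 against 94.3 and 82.4 and Elane lay between 32.9 and 38.4, while the 7 probe sets too dim to test (Ngp, Ltf, Mmp8, S100a9, Cxcr2 and those of Mpo) lay between 3.40 and 28.9. Of 3 T and NK cell, 8 B cell and 4 mast cell and eosinophil probe sets tested, 0 passed in each list. In that order, TGFb2 signals were higher without overlap for 1, 1 and 3 of them and lower for 0, 4 and 0. The shares over all tested probe sets are those given above. Summed over all probe sets of each list, tested or not, signals were 199.7 and 117 against 267 and 203, 837 and 748 against 839.7 and 587, and 483 and 458 against 643 and 485. In the T and NK list 1 probe set of Zap70 gave 9.90 and 8.10 with PBS and 57.2 and 51.6 with TGFb2, a difference of 1.53. This probe set reached the level for testing only through its TGFb2 signals, so its p-value is not given. The other tested probe set of Zap70 gave 68.5 and 37.6 against 87.5 and 40.6 (0.19). Cd2, too dim to test, gave 5.5 and 5.8 against 29.4 and 22.7, and Cd4 lay between 14.3 and 52.8. The probe sets of Cd3d, Cd3e, Cd3g, Cd8a and Cd8b1 lay between 0.10 and 12.0. The part of these shifts in the differences below was not tested.

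Signals were compared as log2(signal + 15), and a difference below is the TGFb2 mean minus the PBS mean on that scale, which understates the change of dim probe sets. The test was limma, adjusted over all 7453 probe sets with a mean signal of at least 25.1. Of the 115 members 92 reached that level, covering 77 genes. Of these 92, 0 passed an adjusted p of 0.05 as higher and 2 as lower, one for Vamp4 and one for Napa. Over all tested probe sets 1.17% passed, 0.805% as higher and 0.362% as lower. At an unadjusted p of 0.05, 9 members passed, which is 9.78% against 11.7% of all tested probe sets. Lower ones made up 8 of them, 8.70% of the members against 5.94% of all tested probe sets. The 90 others did not pass. Their intervals, printed below for part of those named and drawn for every tested member, mark the differences these arrays still allow.

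A difference under 0.25 in size was found for 59 of the 92 members, 64.1% against 61.4% of all tested probe sets, and 59.8% of members had a difference below 0, against 50.2% of all. The median difference of the 92 was -0.06 (all tested probe sets: -0.00087), the quartiles were -0.19 and 0.11 (all: -0.20 and 0.19), and the extremes were -1.18 and 0.86. A difference of at least 0.5 in size was found for 9 members, 9.78%, where 12.6% of all tested probe sets had one. PBS and TGFb2 signals did not overlap, with TGFb2 lower, for 31 members, 33.7% against 21.8% of all tested probe sets, and with TGFb2 higher for 16, 17.4% against 21.1%. These shares describe the members and were not tested.

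**Figure D1:**
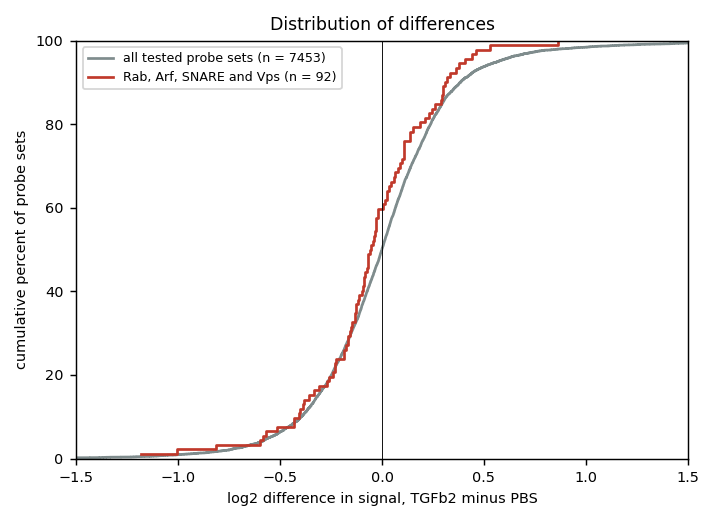
Cumulative percent of probe sets (y axis) by log2 difference in signal, TGFb2 minus PBS (x axis, which leaves out the extremes at both ends), for the 92 tested Rab, Arf, SNARE and Vps probe sets (red) and all 7453 tested probe sets (grey). The red curve crosses 0 at 59.8% and the grey one at 50.2%, and the curves lie close together below -0.5.

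Vamp4 is an R-SNARE of the trans-Golgi network and of the endosomes that return to it. Its brighter probe set gave 716 and 934 with PBS and 324 and 383 with TGFb2. The groups did not overlap, and the lowest PBS signal was well above the highest TGFb2 signal. The mean fell from 825 ± 154 to 353 ± 42.1 (SD, n = 2 arrays per group, here and below), a difference of -1.18 ± 0.19 (SE) with a 95% interval of -1.62 to -0.75, or 2.27-fold (limma adjusted p = 0.0383). In these bulk samples, fewer cells that make a transcript and less of it per cell cannot be told apart. A second, dimmer probe set of Vamp4 gave 151 and 127 with PBS and 101 and 133 with TGFb2. There the groups overlapped, and the difference was -0.23 ± 0.20 (adjusted p = 0.72, 95% interval -0.70 to 0.24). The gap of 0.95 between both probe sets had an exact two-sided permutation p of 0.333, the smallest that 2 arrays against 2 allow. The call of the brighter probe set was lost without PBS replicate 2 (adjusted p = 0.142), TGFb2 replicate 1 (0.156) or TGFb2 replicate 2 (0.0876), with differences of -0.99 to -1.30. It was also lost without the filter on dim probe sets (0.119) or without the intensity trend of the fit (0.105), and over all 12 alternatives the adjusted p ran from 0.00041 to 0.156.

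Because Vamp4 had the largest difference of all members, the 250 bases before the first of its 2 start sites in the RefSeq table (GRCm38.p6, chr1:162570265-162570514, plus strand) are shown, with each match to CACGTG, an E-box, in capitals.
Vamp4: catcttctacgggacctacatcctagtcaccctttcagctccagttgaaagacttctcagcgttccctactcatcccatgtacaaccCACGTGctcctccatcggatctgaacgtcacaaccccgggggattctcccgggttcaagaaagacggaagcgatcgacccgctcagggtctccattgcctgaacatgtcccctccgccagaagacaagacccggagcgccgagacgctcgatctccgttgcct
This window holds 1 CACGTG, the window of the second Vamp4 start holds 0, and the same stretch before the start of Napa holds 3, searched on both strands, where the palindrome reads alike. Of these windows, only the printed one lies outside the annotated gene span. Of all 32851 such RefSeq windows, whether or not their gene was tested here, 6.02% hold at least 1. Of the 83 windows found for 65 of the 77 tested member genes 14 do (16.9%), and other tested genes were not counted apart. CAGAC, the core of Smad binding sites, was found on neither strand of these windows, in 45.8% of the member windows and in 42.2% of all windows. These are matches of letters, which say nothing of binding.

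Napa is alpha-SNAP, the adaptor that brings Nsf to the spent SNARE bundle. Its probe set gave 1499 and 1380 with PBS and 647 and 775 with TGFb2, so that each TGFb2 signal lay well under either PBS signal. The mean fell from 1440 ± 83.5 to 711 ± 90.6, a difference of -1.01 ± 0.15 with a 95% interval of -1.36 to -0.65, or 2.01-fold (adjusted p = 0.0356). The direction held with each array left out in turn, with differences of -0.88 to -1.14, but the call did not (adjusted p = 0.075 to 0.141). It was also lost without the filter (0.107) or the trend (0.109), and over all 12 alternatives the adjusted p ran from 0.0010 to 0.141. Nsf itself gave 233 and 314 with PBS and 266 and 294 with TGFb2. Both TGFb2 signals lay between the PBS signals, and the difference was 0.05 ± 0.19 (adjusted p = 0.96, 95% interval -0.41 to 0.50). The 2 probe sets of Napb, the form of SNAP known from brain, stayed between 8.60 and 28.6 and were not tested.

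**Figure D2:**
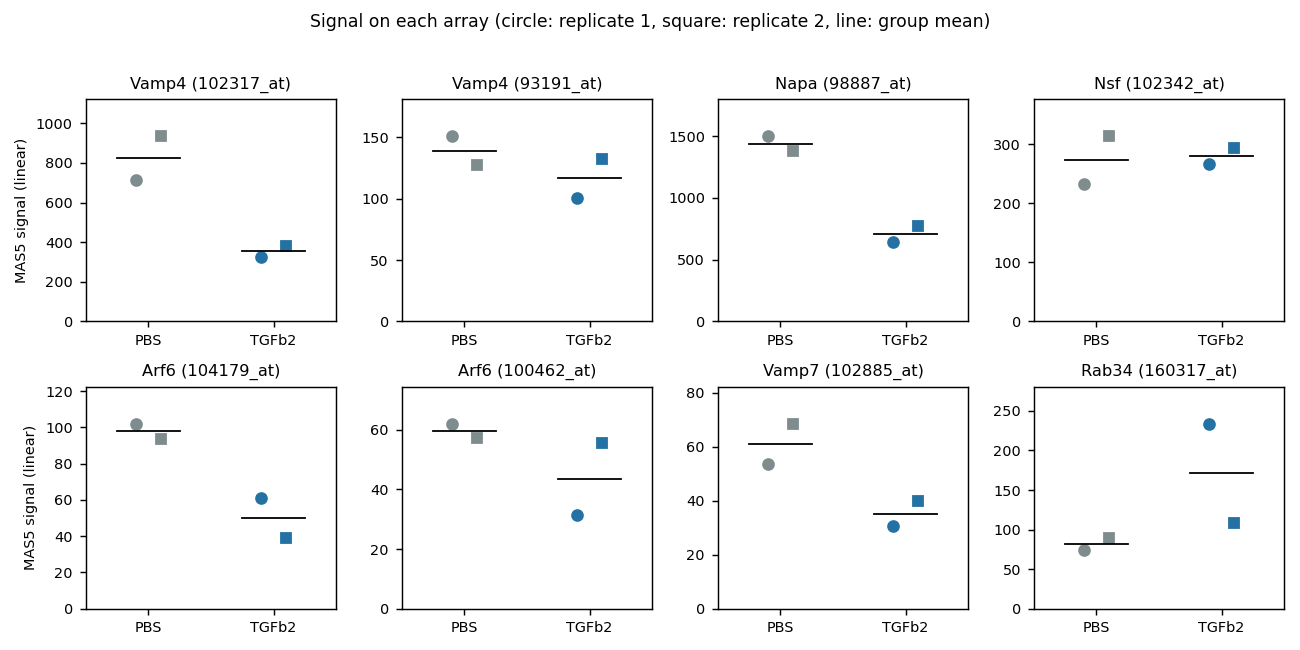
MAS5 signal (y axis, linear and starting at 0 in each panel) on each PBS and TGFb2 array for 8 probe sets of Vamp4, Napa, Nsf, Arf6, Vamp7 and Rab34, with circles for replicate 1, squares for replicate 2 and a line at the group mean. The groups lie apart for Napa and the brighter Vamp4 probe set, overlap for Nsf and the dimmer Vamp4 probe set, and for Rab34 the distance comes mainly from TGFb2 replicate 1 at 234.

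The other R-SNARE genes had 7 tested probe sets, of which 0 passed and 5 had a difference below 0. Vamp7, an R-SNARE of late endosomes and lysosomes, gave 53.8 and 68.6 with PBS and 30.6 and 39.9 with TGFb2. These groups did not overlap, but the difference of -0.60 ± 0.24 did not pass (adjusted p = 0.39, 95% interval -1.16 to -0.04), and the second Vamp7 probe set was too dim to test. Vamp3, the R-SNARE of recycling endosomes, gave 294 and 316 with PBS and 202 and 261 with TGFb2, a difference of -0.39 ± 0.18 (adjusted p = 0.48, 95% interval -0.82 to 0.04). Vamp8, which acts in late endosome fusion, had 2 bright probe sets. One gave 2235 and 2413 with PBS and 2361 and 2177 with TGFb2, a difference of -0.03 ± 0.12, and the other 1159 and 982 against 989 and 787, a difference of -0.27 ± 0.17. Both overlapped between the groups, and since their identifiers end in _f_at their probes may be shared with related sequences. Vamp2, an R-SNARE of regulated secretion, differed by -0.03 ± 0.17 (95% interval -0.43 to 0.37). Vamp5 gave 29.8 and 74.5 with PBS and 53.5 and 76.2 with TGFb2, and the tested probe set of Vamp1 gave 25.6 and 12.3 against 40.9 and 26.3. Their differences of 0.32 ± 0.35 and 0.53 ± 0.34 have wide intervals that include 0. The PBS mean of this Vamp1 probe set was 18.95, so it reached the level for testing only through its TGFb2 signals.

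Of 12 tested Q-SNARE probe sets 0 passed, with 5 differences below 0, 7 above, and a median of 0.10. Syntaxin 12 (Stx12), a Q-SNARE of recycling endosomes, gave 658 and 729 with PBS and 463 and 581 with TGFb2, without overlap. Its difference was -0.41 ± 0.17 (adjusted p = 0.42). Snap23, which pairs with plasma membrane syntaxins in cells other than neurons, gave 113 and 154 against 79.5 and 116, which overlap, and differed by -0.40 ± 0.24. Stx4a, a syntaxin of the plasma membrane, gave 792 and 781 with PBS and 1126 and 851 with TGFb2. The groups did not overlap, and the difference was 0.31 ± 0.17 (adjusted p = 0.55, 95% interval -0.09 to 0.71; 0.11 without TGFb2 replicate 1). Stx5a, the Golgi syntaxin, gave 187 and 191 against 226 and 246, also without overlap, a difference of 0.30 ± 0.17 (adjusted p = 0.55).

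Stx2, of the plasma membrane, gave 344 and 294 against 358 and 393, a difference of 0.23 ± 0.17 (adjusted p = 0.67). Stx6, Stx7, Stx8 and Stx18, syntaxins of the Golgi, the endosomes and the endoplasmic reticulum, differed by -0.15 to 0.14, and so did Snap47. Stx3, another plasma membrane syntaxin, gave opposite signs. Its brightest probe set had 612 and 569 with PBS and 452 and 480 with TGFb2, without overlap, a difference of -0.33 ± 0.15 (adjusted p = 0.46). A second, at 176 and 126 against 233 and 175, differed by 0.41 ± 0.22 (adjusted p = 0.55), and the remaining one stayed between 1.40 and 6.70. Direction for Stx3 thus depends on the probe set. The neuronal Q-SNAREs were at the floor of the array, Snap25 at 1.00 to 1.60 and Stx1a at 4.50 to 11.2.

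**Figure D3:**
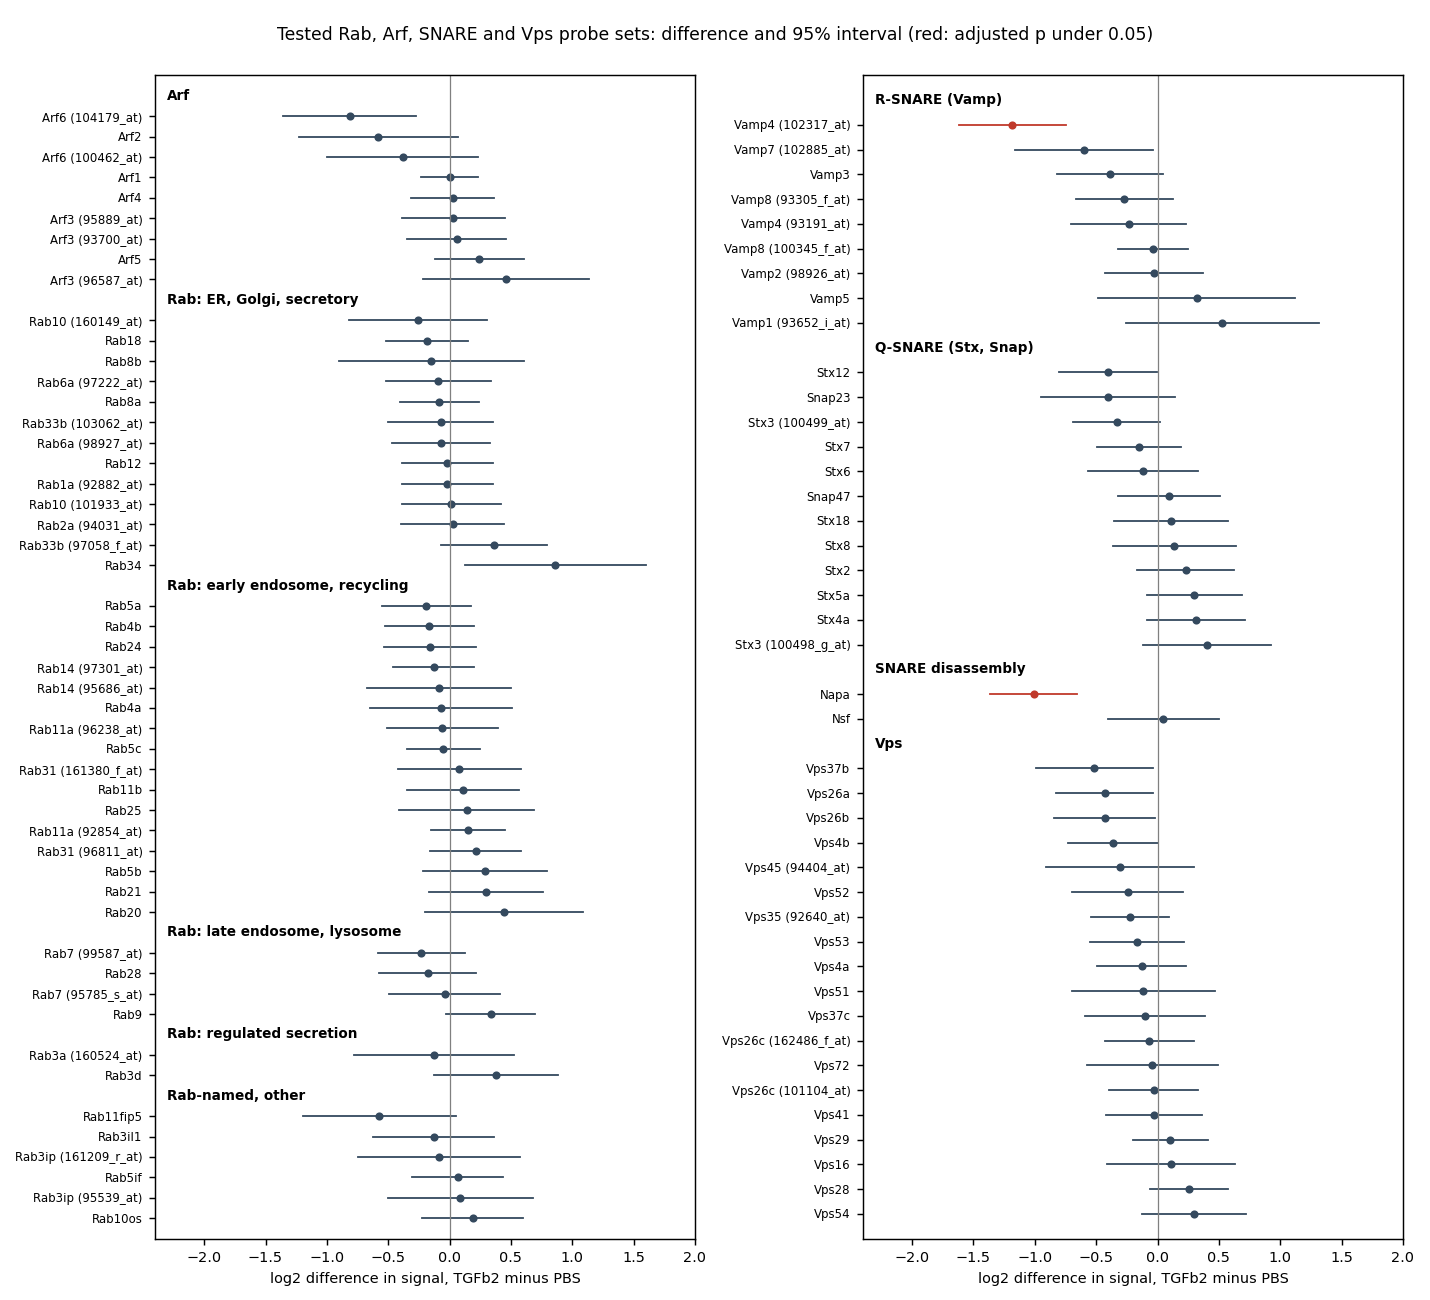
Log2 difference in signal, TGFb2 minus PBS (x axis), with its 95% interval for each of the 92 tested probe sets, grouped by role and ordered by size within each role (genes with several probe sets carry the probe set's name). The probe sets past an adjusted p of 0.05 are red, Vamp4 at -1.18 and Napa at -1.01, and the other 90 are dark.

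All 9 Arf probe sets were tested and 0 passed, with a median of 0.03. Arf6, which acts at the plasma membrane in phagocytosis and endosome recycling, had the lowest Arf difference. One probe set gave 102 and 93.4 with PBS and 61.3 and 38.8 with TGFb2. These did not overlap, and the difference was -0.81 ± 0.23 with a 95% interval of -1.36 to -0.27 (adjusted p = 0.20). The other, at 62.0 and 57.3 against 31.5 and 55.6, differed by -0.38 ± 0.26 (adjusted p = 0.65), also without overlap, though PBS replicate 2 and TGFb2 replicate 2 were nearly equal. Arf2 gave 54.4 and 47.3 with PBS and 38.1 and 21.3 with TGFb2, a difference of -0.58 ± 0.28 (adjusted p = 0.48) that came to -0.31 without TGFb2 replicate 2.

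Arf1, which recruits the COPI coat and clathrin adaptors to the Golgi, gave 4589 and 4667 with PBS and 4589 and 4682 with TGFb2. Its difference was 0.00 ± 0.10 with a 95% interval of -0.23 to 0.23, the narrowest among the Arf probe sets. Arf4, also of the Golgi, differed by 0.03 ± 0.15. Arf5, of the same class as Arf4, gave 867 and 986 against 1004 and 1200, a difference of 0.24 ± 0.16 (adjusted p = 0.62). The 3 probe sets of Arf3, a close relative of Arf1, differed by 0.03, 0.06 and 0.46, the last from the dimmest of them, with PBS signals of 58.4 and 30.6, and that one came to 0.12 without PBS replicate 2.

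Of 41 tested probe sets of Rab-named genes 0 passed, 24 with a difference below 0 and 17 above. Rabs of the endoplasmic reticulum, the Golgi and the secretory route to the surface ran from -0.26 to 0.86, with a median of -0.07 over 13 tested probe sets. Rab1a, of transport from the endoplasmic reticulum to the Golgi, gave 413 and 423 with PBS and 389 and 439 with TGFb2 in the probe set that could be tested, a difference of -0.02 ± 0.16. Rab2a, of the same step, differed by 0.03 ± 0.18, and the 2 probe sets of Rab6a, of transport within the Golgi, by -0.09 ± 0.18 and -0.07 ± 0.17. Rab8a, of delivery to the cell surface, gave 966 and 896 against 873 and 882, a difference of -0.08 ± 0.14 (95% interval -0.41 to 0.24). Rab10, also of the route to the surface, gave opposite signs in its 2 probe sets, -0.26 ± 0.24 and 0.01 ± 0.17, and both overlapped between the groups.

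Rab34, a GTPase of the Golgi that is known for macropinocytosis and phagosome maturation, had the largest upward difference of all members. It gave 74.4 and 89.3 with PBS and 234 and 109 with TGFb2. The groups did not overlap, but TGFb2 replicate 1 lay far above replicate 2. The difference was 0.86 ± 0.32 with a 95% interval of 0.13 to 1.60 (adjusted p = 0.35), and it ran from 0.36 to 1.37 over the alternatives. Rab33b, another Golgi Rab, differed by 0.36 ± 0.18 in one probe set (202 and 159 against 242 and 228) and by -0.07 ± 0.18 in the other. The identifier of the former ends in _f_at, so its probes may be shared with related sequences.

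Rabs of early and recycling endosomes had 16 tested probe sets, 8 below 0 and 8 above, with a median of 0.01. The 3 forms of Rab5, the GTPase that marks early endosomes, were all tested. Rab5c gave 1528 and 1635 with PBS and 1492 and 1556 with TGFb2, a difference of -0.05 ± 0.13. Rab5a gave 583 and 521 against 494 and 470, a difference of -0.19 ± 0.16, and Rab5b, dimmer at 49.6 and 43.1 against 55.8 and 64.4, one of 0.29 ± 0.22. Neither of the last 2 overlapped between groups, in opposite directions, and neither passed (adjusted p = 0.70 and 0.67). Rab11a, the GTPase of recycling endosomes, gave 1412 and 1534 with PBS and 1590 and 1687 with TGFb2, a difference of 0.15 ± 0.13 (adjusted p = 0.71), while its dimmer probe set differed by -0.06 ± 0.19. Rab20, of macrophage phagosomes, gave 149.7 and 201 against 320.0 and 181. These overlap, and the difference of 0.44 ± 0.28 came to 0.056 without TGFb2 replicate 1. Rab14 and Rab31, of traffic between endosomes and the Golgi, differed by -0.13 ± 0.14 and 0.21 ± 0.16 in their brighter probe sets, each without overlap (adjusted p = 0.78 and 0.67).

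Among Rabs of late endosomes and lysosomes 0 of 4 tested probe sets passed. Rab7, which directs late endosomes and phagosomes to the lysosome, gave 1157 and 956 with PBS and 890 and 897 with TGFb2 in one probe set, a difference of -0.23 ± 0.15. The other gave 1697 and 1387 against 1775 and 1253, a difference of -0.04 ± 0.19. Rab9, of the return from late endosomes to the trans-Golgi network, gave 1137 and 992 against 1476 and 1221. Both TGFb2 signals were the higher ones, and the difference was 0.33 ± 0.16 (adjusted p = 0.47, 95% interval -0.03 to 0.70). Rab3d, of secretory granules, gave 283 and 217 against 278 and 383 and differed by 0.38 ± 0.22, or by 0.15 without TGFb2 replicate 2. The Rab11 effector Rab11fip5 gave 222 and 273 against 120 and 215, a difference of -0.57 ± 0.27 (adjusted p = 0.47) that came to -0.19 without TGFb2 replicate 1. Rab5if differed by 0.06 ± 0.16, and the probe sets of the exchange factor Rab3ip by -0.09 ± 0.28 and 0.09 ± 0.25.

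The Vps genes had 19 tested probe sets, of which 0 passed, 15 had a difference below 0 and 4 one above, with a median of -0.11. Retromer, which returns cargo from endosomes, was measured in all of its core subunits. Vps26a gave 504 and 622 with PBS and 401 and 422 with TGFb2, and its alternate Vps26b gave 209 and 192 against 134 and 157. Neither overlapped between groups, and their differences were -0.43 ± 0.17 (adjusted p = 0.38) and -0.43 ± 0.18 (adjusted p = 0.40). Vps35, the scaffold of the complex, gave 1846 and 1766 against 1672 and 1421, a difference of -0.23 ± 0.14 (adjusted p = 0.60), and Vps29 gave 1211 and 1278 against 1386 and 1295, a difference of 0.11 ± 0.13. The interval of Vps29, -0.20 to 0.41, allows either direction. Vps26c, the matching subunit of the related retriever complex, differed by -0.07 ± 0.16 and -0.03 ± 0.16 in its 2 probe sets.

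ESCRT-I sorts ubiquitinated receptors into the vesicles of multivesicular bodies, and the ATPases Vps4a and Vps4b take the ESCRT filament apart. Vps37b, an ESCRT-I subunit, gave 136 and 127 with PBS and 74.0 and 104 with TGFb2, a difference of -0.51 ± 0.21 (adjusted p = 0.39, 95% interval -0.99 to -0.03) that came to -0.31 without TGFb2 replicate 1. Vps28, another subunit, gave 879 and 885 against 1087 and 1029, without overlap in the other direction, a difference of 0.26 ± 0.14 (adjusted p = 0.53). Vps4b gave 739 and 653 against 508 and 569, a difference of -0.36 ± 0.16 (adjusted p = 0.43), and Vps4a differed by -0.13 ± 0.16. The 4 subunits of GARP, the tether at the trans-Golgi network for vesicles from endosomes, ran from -0.24 for Vps52 to 0.29 for Vps54. Vps41 and Vps16, of the tethers of late and early endosomes, differed by -0.03 ± 0.17 and 0.11 ± 0.22.

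Of the 23 genes with several probe sets, 14 had at least 2 tested. Probe sets of the same gene gave the same sign in 9 genes and opposite signs in 5 (Rab10, Rab11a, Rab33b, Rab3ip and Stx3), with a median gap of 0.22, and the gap was under 0.25 in 8. The largest gaps were those of Vamp4 and Stx3, 0.95 and 0.74. Rab6a, Rab14 and Vps26c agreed most closely, with gaps of 0.02 to 0.04. As for Vamp8, 1 tested probe set each of Rab31, Rab33b and Vps26c has an identifier ending in _f_at. Further endings occur in tested probe sets of Rab7 and Arf4 (_s_at), Stx3 (_g_at, the one with a difference above 0), Rab3ip (_r_at) and Vamp1 (_i_at). In all, 10 tested members have an ending other than the plain _at. Probe sets of 1 gene share the samples and are not replicates of the treatment.

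**Figure D4:**
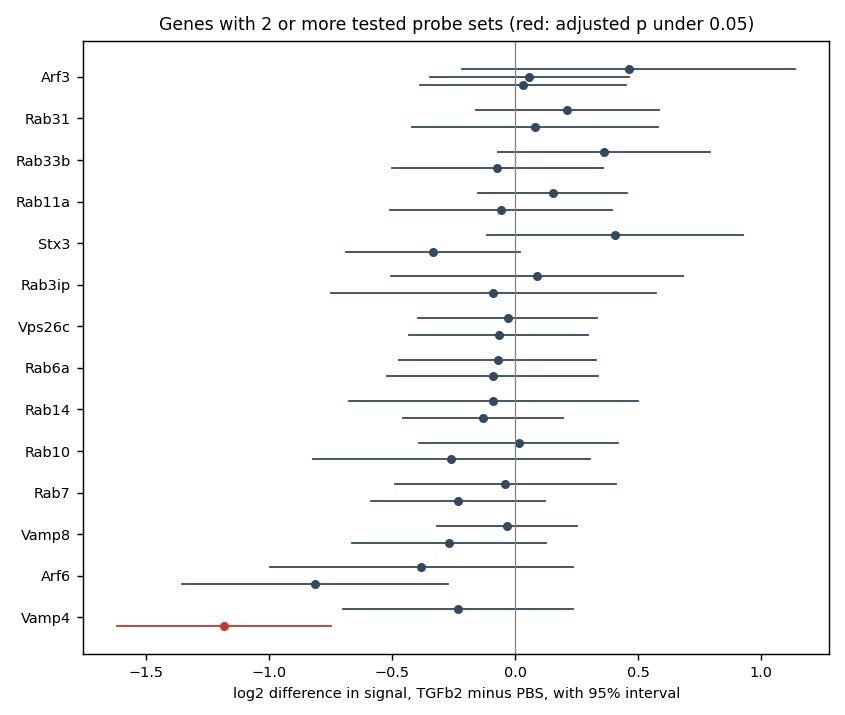
Log2 difference in signal, TGFb2 minus PBS (x axis), with its 95% interval for each tested probe set of the 14 genes that have 2 or more, ordered by the mean difference of the gene. The Vamp4 probe sets lie 0.95 apart and only one of them is past the threshold, the Stx3 probe sets lie on opposite sides of 0, and the points of Rab6a, Rab14 and Vps26c nearly coincide.

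The 23 members that were not tested had signals between 0.20 and 33.2. They left 12 genes with no tested probe set, namely Napb, Rab17, Rab23, Rab26os, Rab33a, Rab35, Rab3b, Snap25, Snap91, Stx1a, Vps13c and Vps37a. Of these, Rab17 gave 3.90 and 3.30 with PBS and 18.8 and 15.8 with TGFb2, all under the level needed for testing. No detection calls were used, so a low signal shows no more than that the probe set was dim.

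Other genes of the same machinery were counted as further lists, each over its tested probe sets. Of 16 probe sets of other SNAREs and their Sec1/Munc18 partners 0 passed, and the largest difference was that of Use1, a SNARE of the endoplasmic reticulum, at 0.49 ± 0.19 (adjusted p = 0.38). Of 19 probe sets of the Rab cycle 0 passed. Rin2, an exchange factor for Rab5, gave 859 and 831 with PBS and 1323 and 1469 with TGFb2, a difference of 0.71 ± 0.14 (adjusted p = 0.067). Of 22 probe sets of the Arf cycle 0 passed, with Cyth1, an exchange factor for Arfs, at 37.6 and 15.7 against 82.8 and 70.6 (1.19 ± 0.30, adjusted p = 0.16). Of 45 of vesicle coats and adaptors 0 passed, with Ap1b1, a subunit of the clathrin adaptor AP-1, at -1.08 ± 0.38 (adjusted p = 0.31).

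Of 11 tether probe sets 0 passed, with Golga5 at 0.31 ± 0.20, and of 29 of ESCRT and sorting nexins 0 passed. There Snx2, a sorting nexin that works with retromer, gave 329 and 449 with PBS and 214 and 239 with TGFb2, a difference of -0.73 ± 0.20 (adjusted p = 0.18). The medians of these 6 lists lay between -0.03 and 0.12. In that ESCRT and sorting nexin list 12 of 29 probe sets were lower without overlap and 3 higher, and among other SNAREs 2 of 16 were lower and 7 higher, beside the 21.8% and 21.1% of all tested probe sets. For the Rab cycle 3 of 19 were lower and 4 higher, and for the Arf cycle 2 of 22 were lower and 6 higher. Among coats and adaptors 7 of 45 were lower and 8 higher, and among tethers 3 of 11 were lower and 4 higher.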

How the data were processed

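The values were the probe set intensities deposited by the authors for 4 Affymetrix arrays. The submitters' processing notes name MAS5 as their source. Its version is not given in the sources used here, nor are detection calls or scan dates, so no array batch could be examined. Of 12488 probe sets, 66 controls were left out. Symbols came from the platform annotation, and all 115 member symbols were found unchanged through their gene ID in the GRCm38.p6 RefSeq table. Coordinates come only from the RefSeq promoter table.

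A pseudocount of 15, which is 10% of the trimmed mean signal, was added before taking log2. Probe sets at or above the 40th percentile of the mean over the arrays entered a linear model in limma 3.58.1 under R 4.3.3 (eBayes with an intensity trend, 2 residual and 5.6 prior degrees of freedom), with treatment as its only term. Tests were two-sided and adjusted by Benjamini-Hochberg. The fit was tested on simulated data. The median standard error was 0.21. Between 52 and 98 values were identical in a pair of arrays, so no array was a copy of another.

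Named members were those past the threshold, the 8 largest differences each way, the 8 brightest, the brightest and the largest difference of each role, and every gene with 2 tested probe sets. Others, chosen after their values were seen, complete a family or complex. Members, lists, roles and tests were chosen with earlier results of these data known.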

Additional observations from a re-analysis of the deposited data

How the results depend on the processing

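Of the 92 tested member probe sets 2 passed, and the same number passed without a pseudocount, with 4 times it, after quantile or cyclic loess normalization, with the filter at the 60th percentile, with the brightest probe set per gene, and, chosen after seeing the data, without probe sets whose identifiers end in _f_at, _g_at, _i_at, _r_at or _s_at. The count was 0 without the filter on dim probe sets and 0 without the intensity trend, and 0 to 1 with each array left out in turn, where a lone array is assumed to vary like the other group. Over all probe sets, 87 passed, against 56 without a pseudocount, 6 without the filter, 13 without the trend, and 11 to 50 with an array left out. The member median lay between -0.08 and -0.03 under every alternative run. With the replicate number as a block (replicate block), 325 of all probe sets and 2 members passed. Deviations of equal numbers correlated at 0.142 over the tested probe sets, but only 2 pairs exist and the labels state no pairing.

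Of the 48 probe sets named by the fixed rule, 14 changed sign under at least 1 alternative, none of them past the threshold in any. Members named only to complete a family or complex were not counted here. Arf1 came to -0.060 after quantile and -0.076 after cyclic loess normalization. With an array left out, the ranges were -0.012 to 0.017 for Arf1, -0.083 to 0.20 and -0.073 to 0.14 for 2 probe sets of Arf3, -0.051 to 0.079 for Rab10, -0.13 to 0.010 for Rab11a, -0.14 to 0.30 for Rab31, -0.16 to 0.012 for Rab33b, -0.073 to 0.25 for Rab3ip, -0.10 to 0.23 for Rab5if, -0.27 to 0.082 and -0.19 to 0.050 for Rab6a, -0.29 to 0.21 for Rab7, -0.092 to 0.023 for Vamp8 and -0.12 to 0.060 for Vps26c. The cause was not tested.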
